A study of Mus musculus with 12 samples.

Results

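The genes described here are 10 genes of glucose uptake, glycolysis, lactate and pyruvate handling in hair follicle stem cells (HFSCs) of mouse back skin: Slc2a1, Hk2, Pfkp, Pkm, Ldha, Ldhb, Slc16a1, Mpc1, Mpc2 and Pdk1. They were chosen by name, with earlier results of these data known, and matched by gene symbol in both expression tables of the study. All 10 were found, among 17885 genes in the Eed iKO table and 21915 genes in the hair cycle table, and all 10 passed the filter on low counts in both. The study sequenced RNA of 12 HFSC libraries, 3 in each of 4 groups, from mice of strain C57BL/6J, sorted as CD34(+) cells that were also EpCAM(+), α6-integrin(high) and Sca1(-). Eed iKO mice carried K15-CrePGR, a progesterone-receptor-fused Cre driven in the bulge of the follicle by a keratin 15 promoter, and loxP-flanked Eed, which codes for a core subunit of Polycomb repressive complex 2. They received RU-486 on shaved back skin (10 mg/ml, 100 µl a day for 7 days) and cells were taken at postnatal day 70, labelled with the genotype Eed -/-. Control libraries were also taken at day 70, labelled wildtype, and the methods state that control mice received ethanol alone. Genotype and RU-486 therefore cannot be told apart between control and Eed iKO. Anagen libraries came from wildtype mice at postnatal days 28 to 30, when follicles grow, and telogen libraries from wildtype mice at days 50 to 52, when follicles rest. Hair cycle phase and age therefore cannot be told apart in that comparison. The labels do not say whether the replicates of a group were single mice or pools, so p-values measure the spread between these libraries.

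Glucose enters the cell through GLUT1 (Slc2a1) and is trapped as glucose 6-phosphate by hexokinase 2 (Hk2). Phosphofructokinase (Pfkp is its platelet isoform) commits the sugar to glycolysis, and pyruvate kinase (Pkm) makes pyruvate at the last step. Pyruvate is then either reduced to lactate, by tetramers of the subunits LDHA and LDHB, and moved across the plasma membrane by the monocarboxylate transporter MCT1 (Slc16a1), or enters mitochondria through the carrier formed by MPC1 and MPC2. Pyruvate dehydrogenase kinases such as PDK1 phosphorylate and inactivate the pyruvate dehydrogenase complex, which slows the entry of pyruvate carbon into the citric acid cycle. In mouse HFSCs, lactate dehydrogenase activity and the mitochondrial pyruvate carrier are known from earlier work to bear on the entry of resting follicles into growth.

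Levels are given as normalized counts, which are estimated read counts divided by a size factor for each library. They are comparable between libraries of one table and not between the tables. The transcript of Eed itself, the targeted gene, was at 1084, 1249 and 950.2 normalized counts in the control libraries and at 933, 1361 and 1001 in the libraries labelled Eed iKO (log2 fold change -0.01, adjusted p = 0.993), so the gene-level count did not separate them. That count takes reads from the whole transcript and does not resolve the exons between the loxP sites, so it does not test the deletion, and the directions given for that comparison follow the labels. One library, Eed iKO replicate 3, stood apart from the others of its group on the first principal component (-0.90, against 42.9 and 68.4 for replicates 1 and 2). Of the defining bulge markers, Cd34, Krt15, Itga6, Sox9, Lhx2 and Nfatc1 were all detected in both tables. Of the 12 bulge markers, 1 fell in anagen, Cd34 (mean 7963 in telogen and 3444 in anagen, adjusted p = 0.00382), and 1 rose, Itga6 (5871 and 11220, adjusted p = 0.0144), with 5 of the 12 log2 fold changes above 0. None of the 12 passed an adjusted p of 0.05 by limma between control and the libraries labelled Eed iKO, with 2 higher and 3 lower at an unadjusted p under 0.05. In bulk RNA, fewer cells of a type and less RNA per cell cannot be told apart.

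Per kilobase of transcript, Ldha was the highest of the members and Slc16a1 the lowest in all 4 groups. Ldha, at 4605 ± 467 normalized counts per kb in control (SD, n = 3) and 1832 ± 989 in telogen, stood at the 97.7th percentile of the genes tested in the Eed iKO table and at the 98.7th in the hair cycle table. Pkm was next in every group, with library ranges that overlapped those of Ldha only in telogen. Slc16a1, at 46.2 ± 17.02 per kb in control and 22.3 ± 13.9 in telogen, stood at the 26.3rd and 40.9th percentile. In the hair cycle table, Hk2, Ldhb, Mpc2 and Slc2a1 overlapped in neighbouring pairs in anagen (343 to 392 per kb) and their order is not resolved. In control, Slc2a1 (3069 ± 1063 per kb) overlapped Pkm (3533 ± 439), and Ldhb (1453 ± 243) overlapped Mpc2 (928 ± 272). Part of the reads behind some of these levels cannot be assigned to 1 gene with certainty. Of the 31-base words in their transcripts, 34.7% for Pkm, 33.0% for Ldhb, 30.8% for Mpc1 and 19.6% for Ldha also occur in other annotated genes, for Ldhb in the processed pseudogene Gm5514, whereas none do for Slc16a1.

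**Figure D1:**
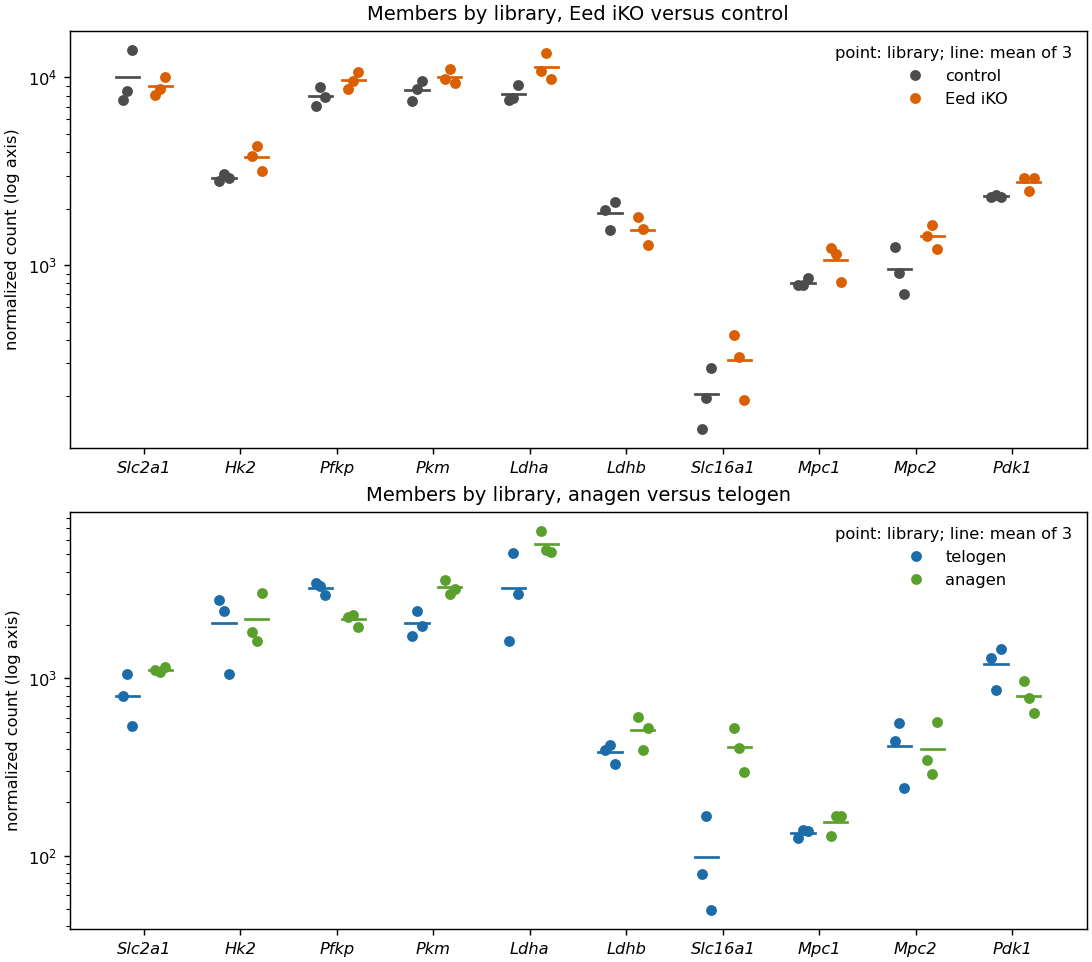
Normalized counts (log axis) of the 10 members in each library, in the Eed iKO table (top) and the hair cycle table (bottom). Points are libraries and lines are means of 3. Slc16a1, Pkm, Ldha and Slc2a1 have all 3 anagen points above all 3 telogen points, narrowly for Ldha and Slc2a1, and Pfkp has them below.

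Between telogen and anagen, the lactate transporter gene Slc16a1 and the pyruvate kinase gene Pkm were higher in anagen. Slc16a1 rose 4.53-fold and Pkm 1.61-fold. Ldha was 1.95-fold higher, with no overlap between groups, but did not pass the test, and the genes of the mitochondrial pyruvate carrier overlapped between the groups. Pfkp, Pdk1 and Mpc2 had log2 fold changes below 0, with levels lower in anagen by 33.8%, 33.7% and 1.61%, and none of them passed the test by limma. In all, 2 of the 10 members passed an adjusted p of 0.05 (limma), against 11.6% of the 13457 genes tested (7.22% higher and 4.35% lower). By the thresholds of the study's methods, an absolute log2 fold change above 2 with an unadjusted p under 0.05, 1 member differed (Slc16a1), against 5.1% of all genes. At an unadjusted p under 0.05, 5 members differed (3 higher and 2 lower), against 27.3% of all genes. The groups did not overlap for 5 members, 4 higher and 1 lower, against 33.3% of all genes. The log2 fold change was above 0 for 7 members, against 50.6% of all genes, and the members' median log2 fold change was 0.30, against 0.01 over all genes tested.

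**Figure D2:**
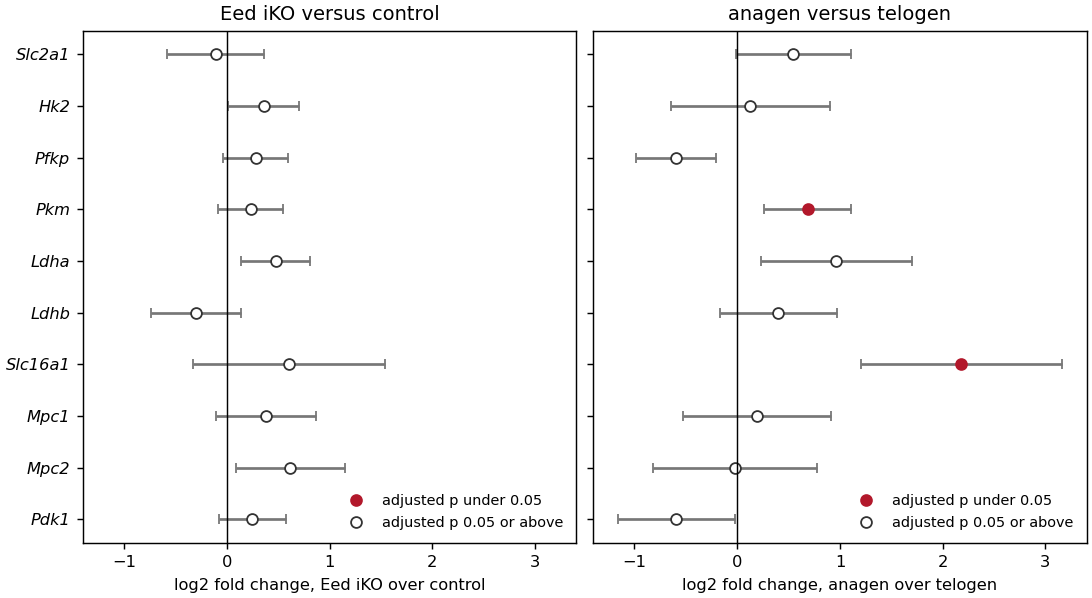
Log2 fold change of each member with its 95% confidence interval, Eed iKO over control (left) and anagen over telogen (right). Filled red points pass an adjusted p of 0.05, which only Slc16a1 (2.18) and Pkm (0.68) in anagen over telogen do.

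At the point of glucose entry, Slc2a1 was at 794, 1052 and 538 normalized counts in telogen and at 1109, 1090.05 and 1160 in anagen. Each anagen library was above each telogen library, and the anagen libraries lay within a far narrower range. The log2 fold change was 0.55 (SE 0.26, 95% confidence interval -0.01 to 1.11, adjusted p = 0.194). Hk2 was at 2751, 2387 and 1051 in telogen and at 1828, 1627 and 3029 in anagen. The groups overlapped fully for this enzyme, and its log2 fold change of 0.13 (SE 0.35, adjusted p = 0.846) changed sign when telogen replicate 3 (-0.30) or anagen replicate 3 (-0.14) was left out.

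In the glycolytic chain, the isoform Pfkp and the final enzyme Pkm had opposite signs. Pfkp was at 3463, 3321 and 2955 in telogen and at 2209, 2282 and 1957 in anagen. All 3 anagen libraries were lower, with a log2 fold change of -0.59 (SE 0.18, adjusted p = 0.0516), just outside the threshold. Pkm was at 1737, 2410.1 and 1983 in telogen and at 3608, 2994 and 3191 in anagen. All 3 anagen libraries were higher, with a log2 fold change of 0.68 (SE 0.19, 95% confidence interval 0.26 to 1.11, adjusted p = 0.0422). This call stands close to the threshold: leaving out telogen replicate 2 gave an adjusted p of 0.0276, and leaving out any other single library gave 0.0644 to 0.187. The gene-level count does not separate the M1 and M2 splice forms of Pkm.

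For lactate, Ldha was at 1633, 5097 and 2974 in telogen and at 6756, 5260.4 and 5170.15 in anagen. Anagen was higher in every library, but telogen replicate 2 came within 1.44% of the lowest anagen library and the telogen libraries themselves spanned a 3.12-fold range. The log2 fold change was 0.96 (SE 0.34, 95% confidence interval 0.23 to 1.70, adjusted p = 0.0900). Without telogen replicate 2 it was 1.37 and passed the test (adjusted p = 0.0136). Ldhb was at 397, 422 and 330 in telogen and at 607, 396 and 527 in anagen, and the groups overlapped (log2 fold change 0.40, SE 0.26, adjusted p = 0.348).

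Slc16a1 carried the largest difference among the members. It was at 78.7, 168 and 49.4 normalized counts in telogen and at 522, 405 and 296 in anagen. The lowest anagen library was above the highest telogen library by 1.77-fold, and the log2 fold change was 2.18 (SE 0.45, 95% confidence interval 1.20 to 3.16, adjusted p = 0.0106). Leaving out single libraries gave 1.78 to 2.65 on the log2 scale. The call was lost without anagen replicate 1 (1.98, adjusted p = 0.0671).

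Slc16a1 and Ldha are the 2 members whose upstream windows hold the hexamer CACGTG, the palindromic E-box that basic helix-loop-helix factors such as MYC can recognize, and their windows are shown for that reason. In GRCm38 coordinates, Slc16a1 lies on chromosome 3 from 104638668 to 104658462 (plus strand) and Ldha on chromosome 7 from 46841475 to 46855627 (plus strand). The windows are the 250 bases before each RefSeq start in the GRCm38.p6 promoter table, overlap no annotated exon and run 5′ to 3′. Capitals mark each CACGTG and each 5-base core ACGTG or GCGTG, on either strand (CACGT and CACGC are the same cores on the other strand, and every CACGTG also contains the first core on both strands).
Slc16a1, chr3:104638414-104638663: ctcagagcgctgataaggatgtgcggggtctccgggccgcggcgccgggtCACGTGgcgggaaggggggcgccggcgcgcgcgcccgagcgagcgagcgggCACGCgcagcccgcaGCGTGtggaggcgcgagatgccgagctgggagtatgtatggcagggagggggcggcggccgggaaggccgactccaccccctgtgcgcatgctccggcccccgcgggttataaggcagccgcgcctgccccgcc
Ldha, first start, chr7:46845554-46845803: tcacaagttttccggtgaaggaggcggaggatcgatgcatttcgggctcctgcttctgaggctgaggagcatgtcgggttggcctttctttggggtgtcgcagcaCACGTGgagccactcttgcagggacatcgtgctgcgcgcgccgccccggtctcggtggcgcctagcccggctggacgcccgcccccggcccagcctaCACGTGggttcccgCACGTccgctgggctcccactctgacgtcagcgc
Ldha, second start, chr7:46846832-46847081: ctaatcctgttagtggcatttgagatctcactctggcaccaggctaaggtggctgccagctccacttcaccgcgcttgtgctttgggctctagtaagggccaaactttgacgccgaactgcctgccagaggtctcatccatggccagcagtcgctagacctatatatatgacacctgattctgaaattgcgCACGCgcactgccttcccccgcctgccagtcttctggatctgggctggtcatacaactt
CACGTG occurs 1 time in the Slc16a1 window and 2 times in the first Ldha window, and in none of the windows of the other 8 members. Both Ldha windows lie inside the annotated span of the gene. The first Ldha start lies 1327 bases from the start of the principal annotated transcript. The second lies 49 bases from it, and its window holds no CACGTG. Of 32851 windows of the same length over all genes, 6.02% hold it. The shorter core is held by 11 of the 14 member windows, at least 1 window for each of the 10 members, and by 38.6% of all windows. These matches are descriptions of the sequence, and binding was not measured.

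At the mitochondrial entry of pyruvate, the carrier genes had overlapping groups. Mpc1 was at 126, 139.9 and 137 in telogen and at 128, 168 and 168 in anagen (log2 fold change 0.19, SE 0.33, adjusted p = 0.747). Mpc2 was at 440.5, 559.5 and 241 in telogen and at 346, 290.4 and 564 in anagen (log2 fold change -0.02, 95% confidence interval -0.82 to 0.77, adjusted p = 0.973). That interval leaves room for a difference in either direction. Pdk1, the kinase that restrains pyruvate dehydrogenase, was at 1304, 856 and 1470.01 in telogen and at 965, 771 and 641 in anagen. Its log2 fold change was -0.59 (SE 0.26, adjusted p = 0.166) and the groups overlapped at telogen replicate 2.

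Around the members, some genes of glycolysis, lactate transport and the hypoxia response rose in anagen. Of the 102 genes in 9 pathway lists, members included, 88 passed the filter, 16 rose and 2 fell, together 20.5% against 11.6% of all genes tested. Their median log2 fold change was 0.47. The other 78 genes alone gave 14 higher and 2 lower, again 20.5%. The proliferation markers moved with this comparison: all 8 rose, with a summed level of 760 to 960 in the telogen libraries and 18531 to 28758 in the anagen libraries. Their part in the differences of the pathway genes was not tested.

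Among 16 glycolytic enzymes tested, 5 rose and 1 fell. Eno1 (enolase 1) rose from a mean of 534 to 2415 (log2 fold change 2.41, adjusted p = 0.00625), a value that is uncertain because Eno1 has the near-identical copy Eno1b. Pgk1, the first ATP-forming enzyme of glycolysis, rose from 994 to 2628 (1.43, adjusted p = 0.00247). Gapdh rose by 0.72 on the log2 scale, Pkm is described above, and the fifth, Pgam1, chosen for mention after its value was seen, rose by 0.66 (adjusted p = 0.0477). The enolase typical of muscle, Eno3, fell from a mean of 202 to 52.9 (-1.82, adjusted p = 0.0269). Of 5 genes that regulate fructose bisphosphate, 1 rose: Pfkfb3, which makes the main allosteric activator of phosphofructokinase, went from a mean of 85.5 to 455 (2.45, adjusted p = 0.00153).

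Of the 4 genes tested in the monocarboxylate transporter list, 3 rose. Beside Slc16a1, these were Slc16a7 (the transporter MCT2), from a mean of 675 to 1887 (log2 fold change 1.55, adjusted p = 0.00457), and Emb, which codes for a chaperone of these transporters, from 2792 to 4592 (0.72, adjusted p = 0.0229). The 9 glucose transporters and 16 citric acid cycle enzymes tested had median log2 fold changes of 0.55 and 0.42, against 0.49 for the 16 glycolytic enzymes. Values above 0 numbered 6 and 15, against 13 for the glycolytic enzymes. No gene of either list passed an adjusted p of 0.05 by limma, with 1 transporter and 3 citric acid cycle enzymes higher at an unadjusted p under 0.05. Slc2a4, the insulin-responsive transporter, was the 1 of these transporters, at 0.92, 0 and 8.45 in telogen and 16.6, 15.7 and 39.8 in anagen. The citric acid cycle enzymes at that threshold were Sucla2 (0.64), Idh3a (0.64) and Ogdh (0.42), with adjusted p of 0.116 to 0.146.

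In the list of pyruvate entry and the pyruvate dehydrogenase complex, 1 of 15 rose and 1 fell, both of them kinases like Pdk1. Pdk3 rose from a mean of 267 to 543 (log2 fold change 1.07, adjusted p = 0.0340) and Pdk2 fell from 323 to 97.6 (-1.73, adjusted p = 0.0435). In the pentose phosphate pathway, Pgd (1.15) and Tkt (1.03) rose among 7 enzymes. Of 13 hypoxia response genes, 4 rose. Hif1a, the oxygen-regulated transcription factor subunit, went from a mean of 1902 to 6954 (1.89, adjusted p = 0.000254) and Vegfa, its classic angiogenic target, from 62.8 to 247.5 (1.99, adjusted p = 0.00598). Adm was at 11.3, 0 and 1.24 in telogen and 42.4, 35.8 and 25.6 in anagen (adjusted p = 0.0351), and Egln1, named after its value was seen, rose by 0.76.

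**Figure D3:**
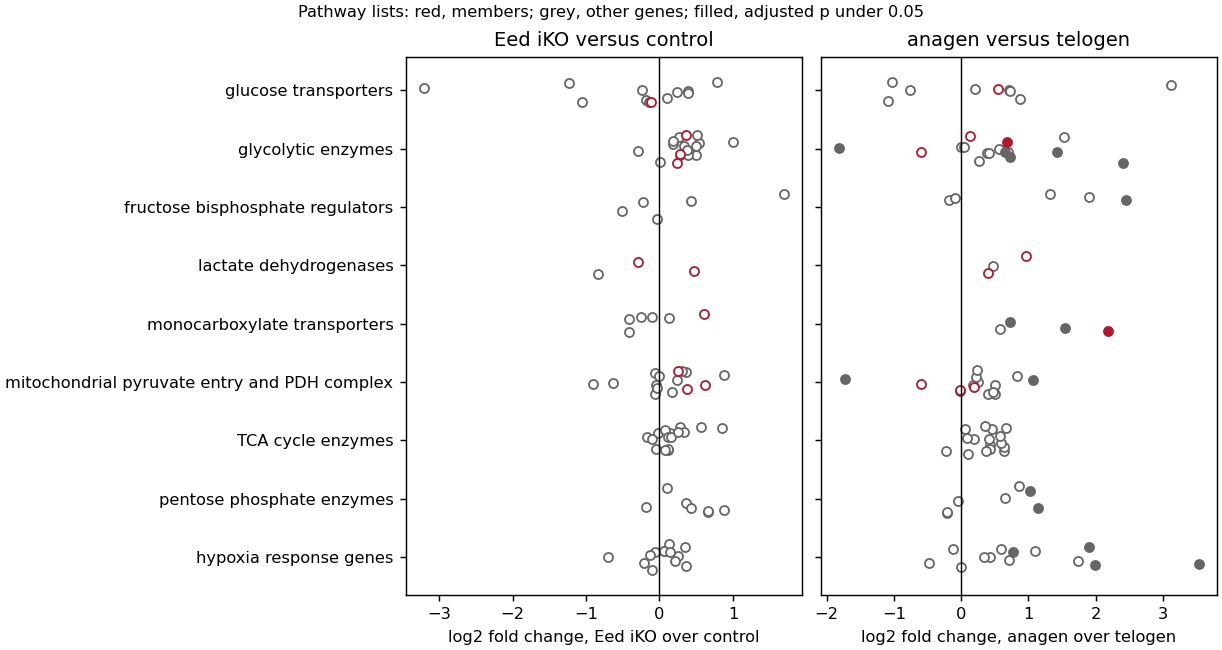
Log2 fold changes of the genes of 9 pathway lists that passed the filter, Eed iKO over control (left) and anagen over telogen (right), on separate horizontal scales. Red points are the members, grey points other genes, and filled points pass an adjusted p of 0.05, which 18 genes do on the right and none do on the left.

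Markers of other cell types also differed between these groups. Of 5 fibroblast and dermal papilla markers tested, 2 rose in anagen, Col1a1 (mean 67.0 to 287) and Dcn (0.70 to 27.1), while the summed level of that list was 401 to 657 in telogen and 495 to 650.1 in anagen. Immune markers summed to 139 to 375 in telogen and 134 to 153 in anagen, and none of 6 tested passed. Melanocyte markers summed to 2882 to 3285 and 1410 to 1488, with 1 higher and 1 lower of 5 tested. Hair matrix markers summed to 779 to 856 and 521 to 684, with 1 lower of 5 tested. Interfollicular epidermis and sebaceous markers summed to 8795 to 17847 and 6602 to 15592, and 1 of 8 tested rose, Fasn (mean 429 to 975, adjusted p = 0.0140), a fatty acid synthesis gene. Muscle and red cell markers summed to 1.95 to 23.6 and 3.14 to 47.7, with Des at 0 in every library, and none passed the filter. The endothelial markers Cdh5 and Cldn5 were at 0 in every library of this table, and the other endothelial markers summed to at most 157. The part of these in the members' differences was not tested.

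Between control and the libraries labelled Eed iKO, none of the 10 members passed an adjusted p of 0.05 by limma, edgeR or DESeq2. The members nearest to it were Ldha (1.39-fold), Mpc2 (1.53-fold) and Hk2 (1.28-fold), each higher in the libraries labelled Eed iKO. These 3 had an unadjusted p under 0.05 with limma, and 3 members did so with edgeR and with DESeq2 on recovered reads. None differed by the thresholds of the methods for this table, an absolute log2 fold change above 1.5 with an unadjusted p under 0.05, which 1.75% of all genes passed. For background, 0.0267% of the 15008 genes tested passed the adjusted threshold by limma, 4 genes in all (0.02% higher and 0.00666% lower), and 14.7% had an unadjusted p under 0.05. On recovered reads, edgeR called 5 of the 15008 genes and DESeq2 called 673 at an adjusted p under 0.05. The log2 fold change was above 0 for 8 members, against 49.9% of all genes, and the libraries did not overlap for 3 (Hk2, Ldha and Pdk1, all higher), against 20.2% of all genes (10.2% higher). The median log2 fold change was 0.32 for the members and -0.0011 over all genes tested.

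For glucose entry, Slc2a1 was at 7550.5, 8492 and 13968 normalized counts in control and at 8102, 8720 and 10093 in the libraries labelled Eed iKO. Control replicate 3 was the highest library, and the log2 fold change of -0.11 (SE 0.21, 95% confidence interval -0.58 to 0.36, adjusted p = 0.851) became 0.16 without it. Hk2 was at 2793, 3064 and 2904 in control and at 3815, 4312 and 3185 in the libraries labelled Eed iKO. All 3 of the latter were higher, with a log2 fold change of 0.36 (SE 0.16, 95% confidence interval 0.01 to 0.70, adjusted p = 0.316).

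Pfkp was at 7068, 8879 and 7912 in control and at 8717, 9566 and 10670.3 in the libraries labelled Eed iKO. The groups overlapped at control replicate 2 (log2 fold change 0.28, SE 0.14, adjusted p = 0.389). Pkm was at 7478, 8691 and 9607 in control and at 9835, 11107 and 9324 in the libraries labelled Eed iKO. Here too the groups overlapped, with the library labelled Eed iKO replicate 3 below control replicate 3 (0.24, SE 0.14, adjusted p = 0.470).

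Ldha was at 7553, 7768 and 9077 in control and at 10850.3, 13445 and 9819 in the libraries labelled Eed iKO. All 3 of the latter were higher, and the log2 fold change was 0.48 (SE 0.15, 95% confidence interval 0.14 to 0.81, adjusted p = 0.188). Without Eed iKO replicate 3 it was 0.58 (adjusted p = 0.101), and leaving out single libraries gave 0.35 to 0.58. Ldhb was at 1972, 1546 and 2164 in control and at 1797, 1551 and 1272 in the libraries labelled Eed iKO, with overlap (-0.30, SE 0.20, adjusted p = 0.511). Slc16a1 was at 134, 196 and 284 in control and at 423, 324 and 192 in the libraries labelled Eed iKO. The first 2 of the latter were above every control library and the last was not (0.60, SE 0.42, 95% confidence interval -0.33 to 1.54, adjusted p = 0.533).

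Mpc1 was at 783, 781 and 858 in control and at 1239.8, 1141 and 815 in the libraries labelled Eed iKO, where replicate 3 again lay within the control range (log2 fold change 0.38, SE 0.22, adjusted p = 0.449). Mpc2, its partner in the carrier, was at 1250.2, 906 and 698 in control and at 1433, 1637 and 1217 in the libraries labelled Eed iKO. Only control replicate 1 reached the lowest of the latter, and the log2 fold change was 0.62 (SE 0.24, 95% confidence interval 0.09 to 1.15, adjusted p = 0.269). Pdk1 was at 2305, 2353 and 2317 in control and at 2912, 2493 and 2899 in the libraries labelled Eed iKO. All 3 of the latter were higher by a small amount (0.25, SE 0.15, adjusted p = 0.455).

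The proliferation marker Mki67 also divided the libraries labelled Eed iKO, at 6125 and 6301 in replicates 1 and 2 and 609 in replicate 3, against 639, 2543 and 928 in control (log2 fold change 1.32, adjusted p = 0.462). All 8 proliferation markers had log2 fold changes above 0 (median 1.10), against 49.9% of all genes. At an unadjusted p under 0.05 by limma, 2 of the 8 were higher, against 8.38% of all genes. None of the 8 passed an adjusted p of 0.05. Their summed level was 1892 to 4372 in control and 1655 to 11237 in the libraries labelled Eed iKO. Its part in the levels of Slc16a1, Mpc1 and Pkm was not tested. In replicate 3, Ldha, Hk2, Pdk1 and Pfkp were above every control library, whereas Pfkp in replicate 1 (8717) was below control replicate 2 (8879). The part of proliferation in the levels of these genes was not tested either. In control and in the libraries labelled Eed iKO, markers of other cell types summed to 2054 to 3721 and 2084 to 2408 for fibroblasts and dermal papilla, 218 to 442 and 244 to 688 for immune cells, and 7819 to 9122 and 7887 to 8829 for melanocytes. The sums were 20965 to 59061 and 18300 to 73847 for interfollicular epidermis and sebaceous gland, 3741 to 5137 and 3821 to 4101 for hair matrix, and 472 to 665.5 and 356 to 687 for endothelium. These ranges overlapped, whereas the low sums of the 3 muscle and red cell markers in the table did not, at 0 to 19.4 and 19.8 to 40.9. None of these marker genes passed an adjusted p of 0.05 by limma. At an unadjusted p under 0.05, 1 fibroblast marker was higher and 1 lower, and 1 immune, 1 melanocyte and 1 interfollicular or sebaceous marker (Mgst1) were higher. Their part in the members' levels was not tested.

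Among the pathway lists, 94 of the 102 genes passed the filter and none passed an adjusted p of 0.05 by limma or edgeR, against 7 by DESeq2. Over all 15008 genes tested, DESeq2 called 673. At an unadjusted p under 0.05, 15 had higher and 3 had lower levels than in control, against 8.38% and 6.33% of all genes, with 19 genes at that threshold by edgeR and 18 by DESeq2. The median log2 fold change was 0.14 for these genes. In glycolysis 5 of 17 enzymes were higher, among them Pfkl, the liver isoform of phosphofructokinase, at 700.0, 706 and 749 in control and at 1182, 1787 and 1428 in the libraries labelled Eed iKO (1.01, adjusted p = 0.0996). Pgk1 (0.54) and Pgam1 (0.51) were higher as well, with an adjusted p of 0.288 and 0.184. Pfkfb3 was at 125, 136 and 261 in control and at 497, 640.1 and 482 in the libraries labelled Eed iKO (1.70, adjusted p = 0.104).

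Of the 7 pentose phosphate enzymes, Pgls (0.88), Taldo1 (0.66) and Tkt (0.65) were higher at an unadjusted p under 0.05, with an adjusted p of 0.123 to 0.215. In the citric acid cycle 2 of 16 were higher, both genes of succinate dehydrogenase subunits, Sdhb (0.86) and Sdhd (0.56). Of the pyruvate dehydrogenase list, Dld (0.36) and Pdk3 (0.88) were higher and Pdk2 was lower (-0.63, adjusted p = 0.107). Slc5a1, a sodium-coupled glucose transporter, was lower, at 96.4, 114 and 146 in control and at 21.5, 0 and 91.9 in the libraries labelled Eed iKO (adjusted p = 0.296). Ldhd, the D-lactate dehydrogenase, was lower by -0.84 on the log2 scale (adjusted p = 0.275). None of 13 hypoxia response genes and none of 6 genes in the monocarboxylate transporter list differed at an unadjusted p under 0.05 or passed an adjusted one by limma.

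Within each library, the balance of the LDH subunits was compared as Ldha minus Ldhb on the log2 scale. It was 2.11 ± 0.20 in control (SD, n = 3) and 2.89 ± 0.27 in the libraries labelled Eed iKO, a difference of 0.77. The ratio of Ldha to Ldhb counts was 3.83, 5.02 and 4.19 in control and 6.04, 8.66 and 7.71 in the libraries labelled Eed iKO, without overlap. The exact permutation test gave p = 0.1, two-sided, which is the smallest value that 3 libraries against 3 allow. In the hair cycle the ratio was 4.11, 12.1 and 8.996 in telogen and 11.1, 13.2 and 9.79 in anagen. The groups overlapped (difference 0.56 on the log2 scale, exact permutation p = 0.3, two-sided), and telogen replicate 1 was the lowest. Without that library the difference was 0.12, and without telogen replicate 2 it was 0.89. The ratio is not per kilobase, and the shared sequence of Ldhb with its pseudogene applies to it.

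**Figure D4:**
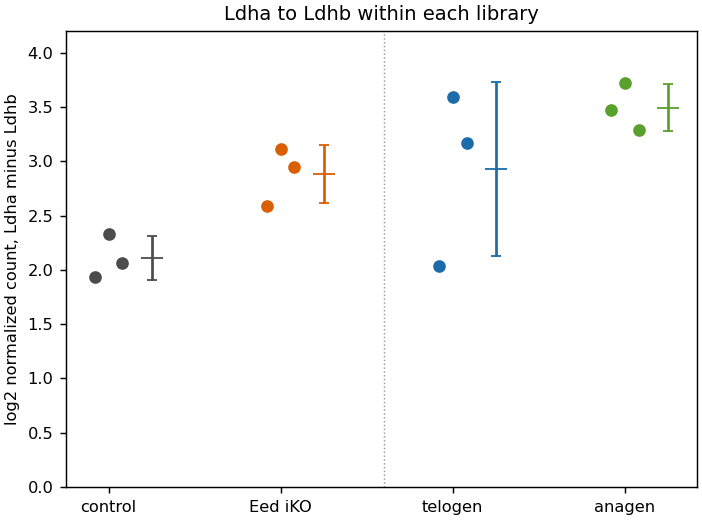
Log2 normalized count of Ldha minus that of Ldhb in each library. Points are libraries, bars beside them the mean ± SD of 3, and the dotted line separates the tables; all 3 Eed iKO points (2.59 to 3.11) lie above all 3 control points (1.94 to 2.33).

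Pdk1 is 1 of 4 pyruvate dehydrogenase kinases, and the makeup of that family was described per kilobase after its values had been seen, without a test. In control, Pdk2 made up 78.1% ± 1.81 of the family level (SD, n = 3), Pdk1 15.0% ± 1.08 and Pdk3 5.79% ± 0.50. In the libraries labelled Eed iKO the shares were 63.4% ± 1.98 for Pdk2, 22.4% ± 2.59 for Pdk1 and 13.4% ± 0.70 for Pdk3. None of these 3 shares overlapped between the groups. Shares of a family depend on each other, since a lower share of Pdk2 raises the rest. The genes' own levels had log2 fold changes of 0.25 (Pdk1), -0.63 (Pdk2) and 0.88 (Pdk3), with adjusted p of 0.107 to 0.455 by limma. In telogen Pdk1 had the largest mean share, at 45.6% ± 11.8, with Pdk2 at 26.9% ± 10.3 and Pdk3 at 25.4% ± 11.1. Pdk3 (38.0%) was above Pdk1 (36.4%) in telogen replicate 2, and Pdk2 (38.7%) was close to Pdk1 (41.5%) in replicate 1. The order in telogen is therefore not resolved. In anagen Pdk3 was the largest, at 55.6% ± 1.95, while Pdk2 was at 9.57% ± 5.31 and Pdk1 at 33.0% ± 5.51. The telogen and anagen ranges overlapped for Pdk1 and not for Pdk2 or Pdk3.

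**Figure D5:**
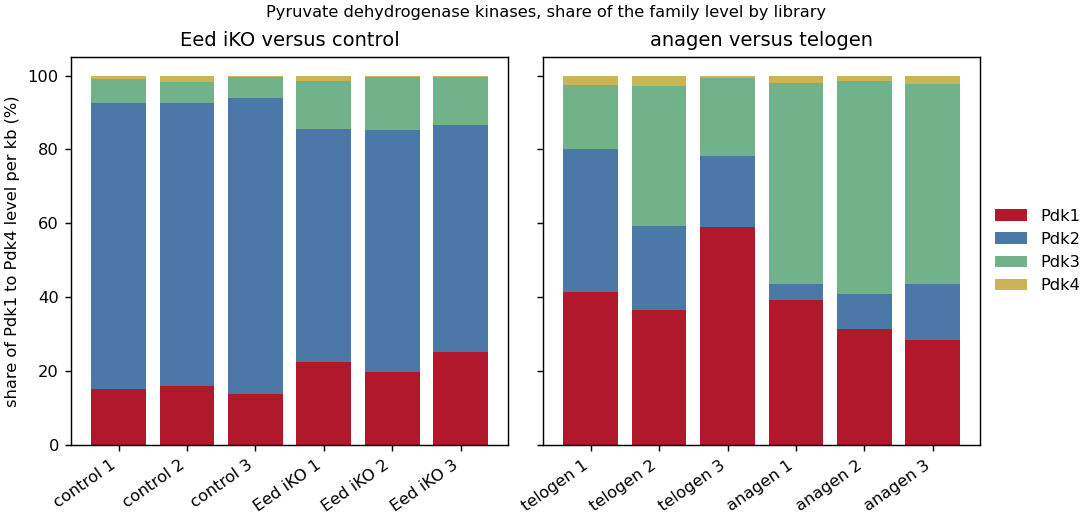
Share of Pdk1, Pdk2, Pdk3 and Pdk4 in their summed level per kb (%), by library, in the Eed iKO table (left) and the hair cycle table (right). Pdk2 takes 76.7% to 80.1% in the control libraries and 61.6% to 65.5% in the libraries labelled Eed iKO, and Pdk3 takes 54.4% to 57.8% in the anagen libraries.

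The same description of the phosphofructokinases showed Pfkp as the main isoform in every group, at 77.4% ± 4.99 of the family level per kb in control, 74.3% ± 0.98 in the libraries labelled Eed iKO, 84.0% ± 8.22 in telogen and 71.5% ± 0.46 in anagen. The share of Pfkl was higher without overlap in both comparisons, from 7.80% ± 0.62 to 12.6% ± 2.43 in the libraries labelled Eed iKO and from 4.92% ± 3.56 to 14.7% ± 2.30 in anagen. Slc2a1 made up most of the glucose transporter level (71.0% to 85.4% as group means). Among the 4 monocarboxylate transporters Slc16a1, Slc16a3, Slc16a7 and Slc16a8, the largest in every group was Slc16a7, not Slc16a1. The share of Slc16a1 was 11.2% ± 2.86 in control and 19.4% ± 7.03 in the libraries labelled Eed iKO. It was 26.7% ± 14.2 in telogen and 33.6% ± 3.95 in anagen, and the groups overlapped in both comparisons.

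The members did not share a single pattern over the 12 libraries. With each table centred on its own mean, Pkm was the nearest member to both Slc16a1 (Pearson r = 0.92) and Ldha (r = 0.92), Hk2 and Mpc2 were nearest to each other (r = 0.83), and so were Pfkp and Pdk1 (r = 0.67). Slc2a1 (r = 0.71), Ldhb (r = 0.57) and Mpc1 (r = 0.51) were each nearest to Slc16a1. Over 13362 genes tested in both tables, the 5 with the highest correlation with Ldha were Fbl (r = 0.97), Atp6v1f (0.97), Eif1a (0.96), Yipf5 (0.96) and Hnrnph2 (0.96). These are descriptions over 12 points that share libraries and group differences.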

How the data were processed

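RNA of 12 sorted HFSC samples was sequenced by the authors after amplification of total RNA. Per the study's methods and the submitters' notes, reads were quantified against Gencode vM20 transcripts (mm10) with kallisto 0.42.5, and protein-coding genes were compared with DESeq2 (given as 3.11). The signal values that the authors deposited are estimated counts scaled by a size factor for each library. The deposited log2 fold changes, p-values and means of the authors were not used. The members and lists were chosen with earlier results of these data known.

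Each table was tested on its own with limma 3.58.1 (R 4.3.3) on log2(signal + 1), with an intensity trend, filterByExpr at a minimum of 10, and Benjamini-Hochberg adjustment over 15008 and 13457 genes. Fold changes are on that scale and understate the changes of low genes. Groups came from the sample labels. In the Eed iKO table all values above 0 were whole multiples of 1 constant per library, within 0.1 reads, which gave 33269583 to 57063586 reads per library, and edgeR 4.0.16 and DESeq2 1.42.0 were run on these reads as alternatives. No depth could be recovered for the hair cycle libraries, whose depth is unknown. Data were simulated with 100 genes changed by 1 and 100 by 2.5 on the log2 scale. Of those changed by 1, limma recovered 29% (Eed iKO) and 18% (hair cycle), and of those changed by 2.5, 73% and 78%. Recovery depends on how many genes change, and 1556 genes were called in the real hair cycle data. Named genes were the 10 members, Eed, Mki67 and, per pathway list and direction, at most 3 other genes with the largest log2 fold change past the adjusted threshold, or else the unadjusted one, and for Ldha the 5 genes most correlated with it. Genes of the marker lists were named outside this rule, after their values were seen. A symbol with 2 identifiers (Aldoa) stands for the higher one. Coordinates and lengths are from GENCODE vM21 (GRCm38), and promoter windows from RefSeq (GRCm38.p6), where all 10 members matched. Listed genes missing from a table (Fbp2 and 6 markers for Eed iKO, Krt85 for the hair cycle) were not analysed here.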

Additional observations from a re-analysis of the deposited data

How the results depend on the processing

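Sample labels share replicate numbers and do not say whether these pair the samples. The deviations of same-numbered libraries correlated at r of 0.04, 0.07 and 0.19 for Eed iKO and control. For anagen and telogen they did so at -0.03, -0.07 and -0.03. Differently numbered libraries had r of -0.15 to 0.08 and of -0.02 to 0.06. Such low values cannot decide whether the numbers pair the samples. With the replicate block, genes called numbered 424 against 4 without it in the Eed iKO table and pathway genes 4 against 0, while in the hair cycle members called were 1 against 2 and pathway genes 9 against 18. Ldha minus Ldhb then had an exact permutation p of 0.25 in both comparisons. The log2 fold change of Pkm in anagen kept its sign and lost its call under the block (adjusted p = 0.0908), without the low-count filter (0.0529) and without the intensity trend (0.142).

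In the Eed iKO table, called genes numbered 2 without the trend, 263 by the thresholds of the study's methods, 2207 at an unadjusted p under 0.05 and 673 with DESeq2. Pathway genes then numbered 2 by the methods' thresholds, 18 at an unadjusted p and 7 with DESeq2. The unadjusted counts of the other tools, added after seeing the data, were 2153 (edgeR) and 2395 (DESeq2) over all genes, 19 and 18 over pathway genes, and 3 members each, as with limma. In the hair cycle table, called genes numbered 842 without the trend, 686 by the methods' thresholds and 3678 at an unadjusted p. Pathway genes numbered 6, 5 and 32 and members 1, 1 and 5 under the same settings, and members 1 without the filter.

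Leaving out single libraries gave 1 to 203 genes, 0 to 0 members and 0 to 1 pathway genes in the Eed iKO table (203 genes without Eed iKO replicate 3), and 597 to 1529 genes, 0 to 3 members and 6 to 19 pathway genes in the hair cycle (0 members without anagen replicate 1). Ldha minus Ldhb ranged from 0.66 to 0.92 and from 0.12 to 0.89. Signs turned for Slc2a1 in the Eed iKO table (range -0.29 to 0.16) without control replicate 3 (0.16), for Mpc2 in the hair cycle (range -0.37 to 0.24) without telogen replicate 1 (0.06) or 2 (0.24) or anagen replicate 1 (0.05) or 2 (0.18), and for Hk2 there (range -0.30 to 0.39) without telogen replicate 3 (-0.30) or anagen replicate 3 (-0.14). The causes were not tested. No other member changed sign, and no member of the Eed iKO table gained a call. With 3 libraries a group, most differences of 1 on the log2 scale were missed in the simulated data, which held fewer changed genes than were called in the hair cycle.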
